A study of Mus musculus with 6 samples.

Results

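The wild-type epidermis was compared between postnatal day 21 (P21) and postnatal day 1 (P1) in the 3 WT libraries of a series of 6 libraries. They are 1 library of female mice and 1 of male mice at P1, and 1 library at P21, whose sex field says female. They were chosen by genotype and age from the sample labels, and the counts of both deposited tables were joined by gene identifier and normalized together. The series was made to study stearoyl-CoA desaturase 1 (SCD1) in the skin and its hair follicles. All mice were C57BL/6, WT or SCD1-/- in every cell of the body, and the remaining 3 libraries are SCD1-/- libraries of the same ages. Skin was digested to obtain total epidermal cells, and the labels do not separate surface epidermis from follicle epithelium. How much follicle epithelium each library held is not stated. The labels give day 21 for the later libraries, while the text of the study gives day 19 for its later RNA-seq, and the age of the labels is used here. How many mice gave each library is not stated. With 1 library at P21, nothing measures the spread between mice of that age, and age cannot be told apart from anything else that differed between the 2 deposited tables, such as the day of dissection or of library preparation.

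Mouse skin is covered by fine hair that starts to erupt in the days after birth. At P1 the follicles are still growing down and building the first hair shafts, and the surface epidermis has just become a barrier to dry air. By weaning the first hair cycle has ended, the lower follicle has regressed in catagen, and the resting (telogen) follicle keeps its stem cells in the bulge. Langerhans cells, the antigen presenting cells of the epidermis, and dendritic epidermal T cells, which carry a γδ T cell receptor, seed the skin around birth and fill it over the following weeks.

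The libraries held 16781305 (P1 female), 16118331 (P1 male) and 14795379 (P21) counts on 54532 genes, and 17172 genes passed the filter on low counts. Levels are given as CPM, counts per unit of library size, after scaling with the trimmed mean of M values (TMM), in the order P1 female, P1 male and P21. A gene was called changed when the adjusted p of edgeR's quasi-likelihood test was under 0.05 and its P21 level lay outside both P1 levels. By that rule 6974 genes (40.6%) changed, 3769 of them higher at P21 (21.9%) and 3205 lower (18.7%), and these shares are the background for every count of a gene list that follows. The P21 level lay outside both P1 levels for 15147 genes (88.2%), so that condition alone sets few genes apart. DESeq2 called 4376 genes, 1910 of them higher (43.6%, against 54% by edgeR). Without either WT P1 library, in edgeR fits that kept the SCD1-/- libraries, more genes were called lower than higher. The median log2 fold change over all tested genes was 0.04, and the P1 libraries lay a median of 0.28 apart on the log2 scale. The spread in this test comes from the pair of P1 libraries alone and was shared among genes of similar level. The P21 library was taken to vary like them, so the p-values rank genes against that pair and do not measure the spread between mice at P21. A second, value-only rule asked for a P21 level at least 2-fold beyond the nearer P1 library, which 3157 genes (18.4%) met upward and 2145 (12.5%) downward.

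**Figure D1:**
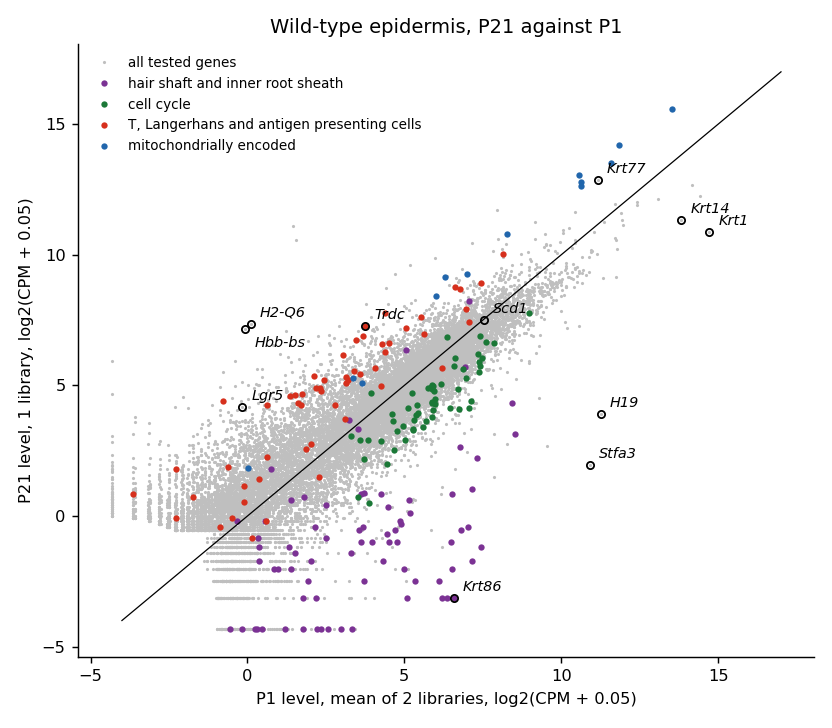
Level of each tested gene in WT epidermis at P1 (horizontal, mean of 2 libraries) and at P21 (vertical, 1 library), both as log2(CPM + 0.05), with the line of equal levels. Grey points are the 17172 tested genes and coloured points are members of 4 groups of gene lists. Hair shaft and inner root sheath genes lie mostly far below the line, cell cycle genes mostly below it, and T cell, Langerhans cell and mitochondrially encoded genes mostly above it.

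Labels were checked first. Scd1, the targeted gene, was at 159, 209 and 180.1 CPM in the WT libraries and at 14.9, 14.7 and 0 CPM in the SCD1-/- libraries. The sex field of the P21 WT library says female, but 4 genes of the Y chromosome (Ddx3y, Eif2s3y, Kdm5d and Uty) had 1836 counts in it, against 5 in the P1 female and 2007 in the P1 male library. Xist, the RNA of the inactive X chromosome, was at 1457, 0.195 and 1357 CPM. The library labelled female at P21 thus held both Xist and Y-linked transcripts, each at about the level of the P1 library that has it, and the call of Ddx3y as higher at P21 rests on the P1 female library without Y-linked counts. Sex differences can therefore not be separated for these genes, and no other statement below is about sex.

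The make-up of the P21 library also differed. Mitochondrially encoded protein-coding genes took 11.1% of its counts and 2.35% and 2.27% at P1. Gm23935, Gm24270 and CT010467.1, 3 annotated genes on which reads of ribosomal RNA tend to fall, took 0.392% at P21 and 0.000542% and 0.000534% at P1. Long intergenic noncoding RNA took 1.1% at P21 and 0.678% and 0.549% at P1. Tested genes were divided into 10 classes of equal size by length. The shortest class (45 to 983 bases) had a median log2 fold change of -0.28 and the longest (9042 to 123179 bases) one of 0.27. Processed pseudogenes had a median of -0.88, and antisense genes one of 0.83. In a fit without mitochondrial and ribosomal RNA genes the median log2 fold change was 0.036, against 0.04 with them. With the median of each gene's own length class taken off, the median of the antimicrobial and alarmin list alone changed sign. The part of these shifts in the results below was not tested beyond that.

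**Figure D2:**
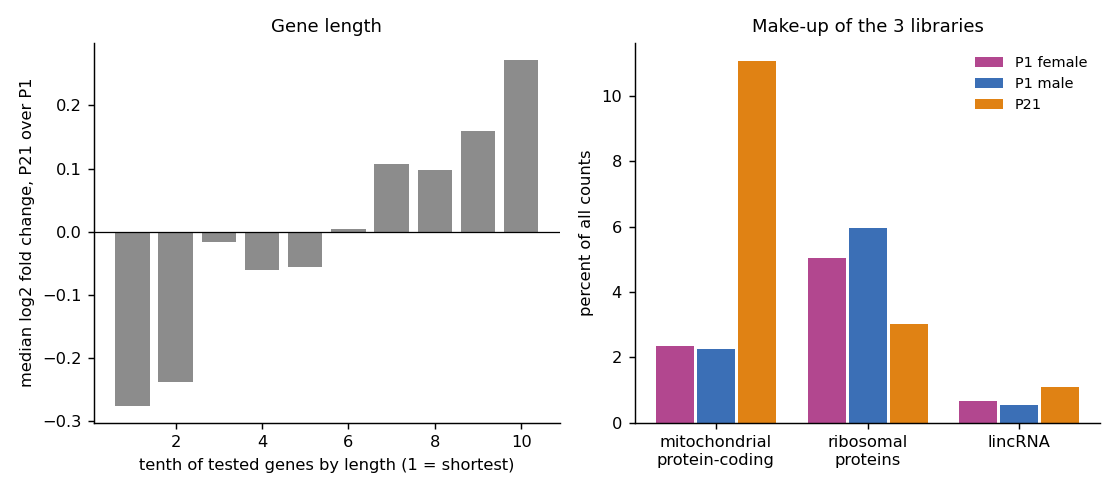
Left, median log2 fold change (P21 over P1) of the tested genes in each of 10 classes by gene length, running from -0.28 in the shortest to 0.27 in the longest. Right, percent of all counts in each of the 3 WT libraries that fell on mitochondrially encoded protein-coding genes, ribosomal protein genes and lincRNA genes, with the P21 bar highest for mitochondrial and lincRNA genes and lowest for ribosomal protein genes.

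All 3 libraries were keratinocyte libraries by their defining markers, but the most abundant keratin transcripts were far lower at P21. The 14 keratinocyte identity genes summed to 92046, 106870.0 and 28384 CPM. Of these 14 genes 6 fell and none rose (median log2 fold change -0.56). Krt1, the type II keratin of the spinous layer, was at 25026 and 28894 CPM at P1 and 1875 CPM at P21 (log2 fold change -3.85 ± 0.34 (SE), adjusted p = 1.91e-27 in edgeR's quasi-likelihood test), and its partner Krt10 was at 17678, 19418 and 6525 CPM (log2 fold change -1.51 ± 0.30 (SE)). The basal layer pair moved alike. Krt5 was at 19080.0, 24671 and 4906 CPM (log2 fold change -2.16 ± 0.31 (SE)) and Krt14 at 12488, 16519 and 2550.5 CPM (log2 fold change -2.51 ± 0.32 (SE)). In all 4 genes the P21 library lay below both P1 libraries, which differed from each other by far less. Trp63, the transcription factor that keeps cells in the epidermal lineage, was at 588, 441 and 541 CPM and was not called. Epcam, a surface glycoprotein gene, was not called either, at a log2 fold change of 0.37. A type II keratin of the layers above the basal layer went the other way: Krt77 was at 2095, 2461 and 7480.4 CPM (log2 fold change 1.72 ± 0.27 (SE)). Per length, as TPM, which divides counts by gene length and scales every library to one sum, Krt1 was at 17128, 17827 and 1179 TPM and Krt77 at 2160.2, 2287 and 7085 TPM, so the order of this pair of levels was inverted at P21.

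Among 29 basal keratinocyte genes, 16 fell and 2 rose (median -0.88). The largest decrease was that of Igfbp2, a binding protein of insulin-like growth factors, at 74, 122 and 3.4 CPM (log2 fold change -4.85 ± 0.38 (SE)). Wnt4, a secreted Wnt ligand, followed Ass1 in the order of decrease, at 469, 529 and 60.9 CPM (log2 fold change -3.03 ± 0.33 (SE)). Krt15, a keratin of basal and bulge cells, was at 4908, 5953 and 3859 CPM and was not called. Ly6e, a small membrane-anchored surface protein, rose, at 49.7, 65.3 and 214 CPM (log2 fold change 1.90 ± 0.27 (SE)), and Dst, which encodes the hemidesmosomal plakin BPAG1, rose as well (log2 fold change 1.32). The list of 5 stress keratins, named for keratins that injured or hyperproliferative epidermis makes, gave 3 decreases (Krt16, Krt17 and Krt75) and no increase. Krt17 fell, at 2206, 2909 and 556 CPM (log2 fold change -2.20 ± 0.32 (SE)) and Krt16 fell by 1.70 on the log2 scale. Krt75 fell by 1.18. Krt6a was at 67.7, 69.4 and 90.6 CPM and Krt6b at 8.84, 4.81 and 9.93 CPM, and neither was called.

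The differentiating layers were divided. Of 42 tested genes of the spinous and granular layers 8 rose and 15 fell (median -0.39), and of 51 genes of the cornified envelope 5 rose and 29 fell (median -1.11). Loricrin, Lor, the main protein of the mouse envelope, was among those not called, at 3176, 4412 and 3123 CPM, with the P21 level just below the P1 female library. Profilaggrin, Flg, which packs keratin filaments, fell across the libraries (1511, 1533 and 154 CPM, log2 fold change -3.31 ± 0.34 (SE), adjusted p = 4.61e-20). Its neighbour and relative Flg2 rose (613, 536 and 2441 CPM, log2 fold change 2.09 ± 0.28 (SE)). Hrnr, a further S100-fused protein of that kind, also rose (log2 fold change 1.29), as did Rptn (13.1, 6.77 and 22.2 CPM), while cornulin, Crnn, fell (log2 fold change -4.18). Members of one gene family on chromosome 3 thus changed in opposite directions between the ages.

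The stefin A genes, inhibitors of cysteine proteases encoded by near-identical copies on chromosome 16, were among the genes that fell most. Stfa3 was at 1682, 2168 and 3.78 CPM (log2 fold change -8.99 ± 0.47 (SE), adjusted p = 1.02e-76), which put it among the 10 highest genes per length at P1 and made it a minor transcript at P21. All 5 tested genes of the stefin A family fell, with log2 fold changes from -8.99 to -1.3. Of 7 tested Sprr genes, which encode small proline-rich envelope proteins, 5 fell, and of 16 tested Lce genes, which encode late envelope proteins, 11 fell and 1 rose. The exception was Lce1m, at 419, 428 and 805 CPM (log2 fold change 0.93), while Lce1g fell by 5.37 and Lce1f by 2.84. Copies within these families share sequence, and how reads were split between them is uncertain. Tgm3 and Casp14, a transglutaminase and a protease of late differentiation, fell by 2.98 and 2.12 on the log2 scale. Cldn1, the main claudin of the epidermal barrier, rose (289, 231 and 547 CPM), and Spink5, an inhibitor of kallikreins, rose by 1.19 on the log2 scale.

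Genes of the hair shaft were far lower in the P21 library than at P1. Of 15 tested hair shaft keratins 12 fell and none rose (80.0% called, all downward, against 18.7% of all genes). Of 43 tested keratin-associated protein genes, which encode the matrix between the keratin filaments of the hair, 37 fell and none rose. Of 17 inner root sheath genes 15 fell. The hair shaft keratins summed to 1089.7, 861 and 25.2 CPM and the keratin-associated proteins to 808, 639.7 and 30.4 CPM. Krt86, a type II keratin of the shaft, had 1762, 1311 and 1 counts in the P1 female, P1 male and P21 libraries (log2 fold change -10.38, with a 95% interval of -15.85 to -8.07 from counting error alone). Krt34, a type I keratin of the shaft, had 1311, 1045 and 1 counts (interval -15.47 to -7.69), and Krt81 had 2659, 1932 and 4 counts (log2 fold change -9.08 ± 0.53 (SE)). Both P1 libraries held 1045 or more counts of each of these genes, and the P21 library held 1 to 4. For Krt82 and Krt40, which had 0 counts at P21, a limit of 3 counts gives levels at least 23.7-fold and 6.99-fold lower. With such genes set at their bounds, the shaft keratins had a median of -5.71 in place of -7.42, and the keratin-associated proteins one of -3.93 in place of -4.78. The remaining 3 hair keratins were not called, and they did not lie with the rest: Krt32 was at 8.78, 10.1 and 12.9 CPM, Krt84 at 1.98, 1.3 and 3.46 CPM and Krt39 at 3.31, 1.82 and 1.47 CPM.

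The inner root sheath, the sleeve that moulds the growing shaft, gave decreases of like size (median -5.12). Krt71, a type II keratin of the sheath, was at 306, 429 and 8.78 CPM (log2 fold change -5.39 ± 0.38 (SE)), and trichohyalin, Tchh, which hardens the sheath, was at 356, 331 and 20.1 CPM (log2 fold change -4.09 ± 0.34 (SE)). Padi1, a peptidylarginine deiminase, had 116, 136 and 0 counts, so it was at least 41-fold lower. The 2 members that rose are transcription factors with wider expression, Gata3 (129, 139 and 301 CPM) and Cux1 (32.7, 33 and 82 CPM).

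Keratin genes lie in 2 clusters in GRCm38, on chromosome 15 (from 101347444 to 102032027) and on chromosome 11 (from 99279959 to 100269871). This account of the whole keratin family was added after its values were seen. Of 24 tested keratins of the chromosome 15 group 2 rose and 16 fell, and of 25 of the chromosome 11 group 1 rose and 16 fell. Krt77, Krt78 (log2 fold change 1.47) and Krt23 (log2 fold change 1.26) were the 3 that rose. Keratin-associated protein genes on chromosome 16, between 88610705 and 89571183, gave 22 decreases among 23 tested genes. Those on chromosome 11, which lie among the type I keratins, gave 11 among 16.

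**Figure D3:**
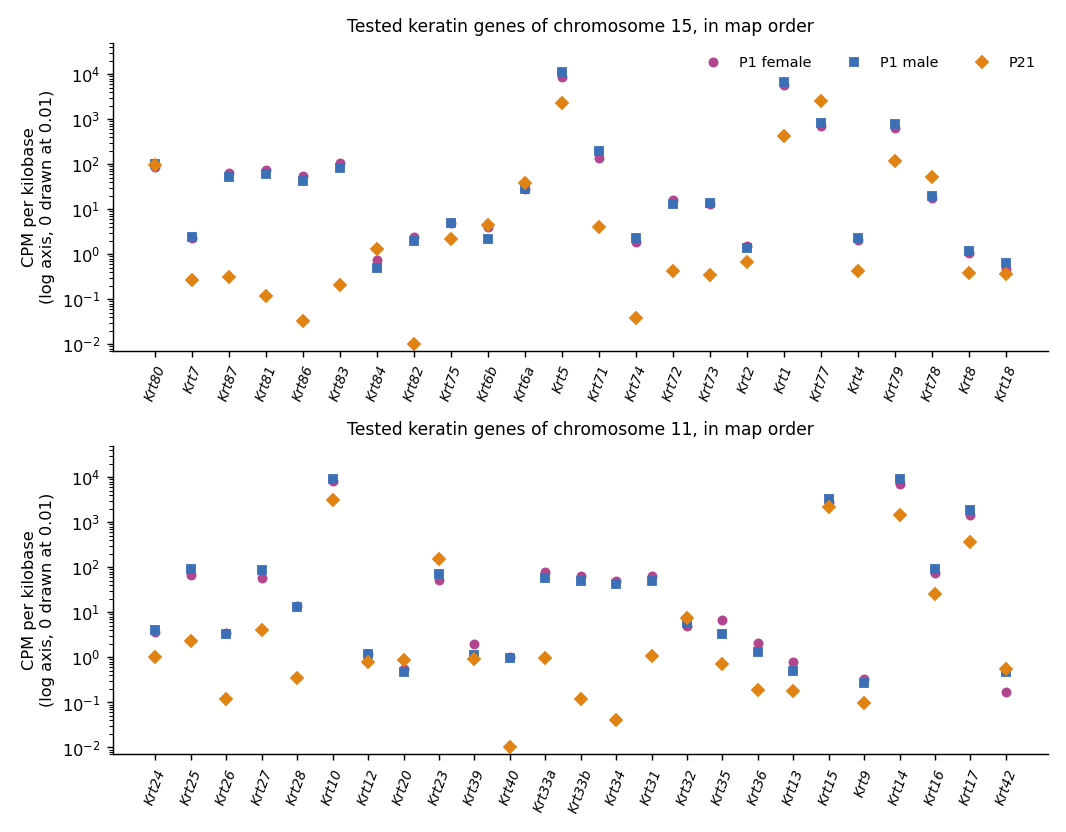
Level of the tested keratin genes of chromosome 15 (top) and chromosome 11 (bottom) in map order, as CPM per kilobase of gene length on a log axis, in the P1 female, P1 male and P21 libraries, with a level of 0 drawn at 0.01. For most genes the P1 symbols lie close together, with Krt42 (gap of 1.49 on the log2 scale) and Krt35 (1.03) among the exceptions. The P21 symbol lies lower by orders of magnitude for Krt81, Krt83, Krt86 and Krt87 on chromosome 15 and for Krt31, Krt33a, Krt33b and Krt34 on chromosome 11, higher for Krt77, Krt78 and Krt23, and between the P1 symbols for Krt80.

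Regulators of the hair matrix and shaft changed less than the structural genes. Of 33 tested genes 7 rose and 14 fell (median -0.68). Dlx4, a homeobox gene, had 61, 45 and 0 counts and was at least 17.2-fold lower at P21. Lef1, a nuclear partner of β-catenin in Wnt signaling, fell, at 4.03, 4.29 and 0.961 CPM (log2 fold change -2.10), and Gli2, an effector of hedgehog signaling, at 27.5, 26.2 and 8.14 CPM (log2 fold change -1.72). Hoxc13 and Foxn1, regulators of hair keratin genes, did not fall. Hoxc13 was at 4.15, 4.1 and 9.68 CPM and rose (log2 fold change 1.23, adjusted p = 0.00307 in edgeR's quasi-likelihood test), and Foxn1 was at 25, 27.9 and 24.7 CPM and was not called. Gsdma3, a gasdermin of skin and upper follicle, rose, at 1.92, 1.37 and 9.81 CPM (log2 fold change 2.56), and Hr, the hairless corepressor, at 495, 521 and 913 CPM (log2 fold change 0.85).

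Klf5, a factor of epithelial stem and progenitor cells, was at 355, 322 and 181 CPM (log2 fold change -0.90). Genes of hair follicle stem cells went in both directions, 14 up and 14 down of 45 tested (median 0.09). Lgr5, the R-spondin receptor that marks the lower bulge and hair germ, gave the largest increase of the list, at 0.842 and 0.846 CPM at P1 and 17.8 CPM at P21 (log2 fold change 4.39 ± 0.40 (SE), adjusted p = 5.04e-26). Cd34, the surface marker of mouse bulge cells, was at 0.902, 0.846 and 2.95 CPM (log2 fold change 1.74 ± 0.56 (SE)), and Sox9, which bulge cells need, at 49, 50.3 and 83 CPM (log2 fold change 0.74 ± 0.27 (SE)). All 3 of these bulge markers were higher at P21 than in either P1 library, although DESeq2 gave adjusted p-values of 0.235 for Cd34 and 0.0831 for Sox9. Lgr6 and Lrig1, markers of stem cells of the isthmus above the bulge, fell (135, 118 and 68.2 CPM and 453, 446 and 249 CPM, log2 fold changes -0.89 and -0.85). Fgf18, which holds follicles in telogen, had 1, 2 and 15 counts and rose (log2 fold change 3.25, counting interval 1.54 to 5.79). Tnc, the bulge matrix protein tenascin C, fell, at 253, 283 and 29.2 CPM (log2 fold change -3.20 ± 0.32 (SE)), as did Igfbp5 (log2 fold change -3.77) and Barx2 (log2 fold change -2.79).

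Signals of the hair cycle gave 8 increases and 19 decreases among 43 tested genes (median -0.26). Over the 15 tested genes of Wnt ligands, secreted signals that start and sustain hair growth, 10 fell and 3 rose. Wnt7a was at 18.8, 20.4 and 0.513 CPM (log2 fold change -5.23 ± 0.50 (SE)), and Wnt3, Wnt6, Wnt7b, Wnt10a and Wnt10b fell by 1.31 to 1.75. Wnt5a rose (5.35, 4.29 and 9.1 CPM). Ligands of the epidermal growth factor receptor split. Hbegf fell, at 41.2, 39.2 and 5.13 CPM (log2 fold change -2.97), whereas betacellulin, Btc, rose, at 23.5, 21.5 and 276 CPM (log2 fold change 3.62 ± 0.28 (SE)) and epiregulin, Ereg, at 6.2, 5.79 and 72.9 CPM (log2 fold change 3.60 ± 0.30 (SE)). Of the transforming growth factor and bone morphogenetic protein ligands, Tgfb2, Tgfb3, Bmp2 and Bmp7 fell by 1.24 to 2.34. Dkk2, a secreted Wnt antagonist, had 0, 0 and 19 counts and was at least 6.49-fold higher at P21.

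**Figure D4:**
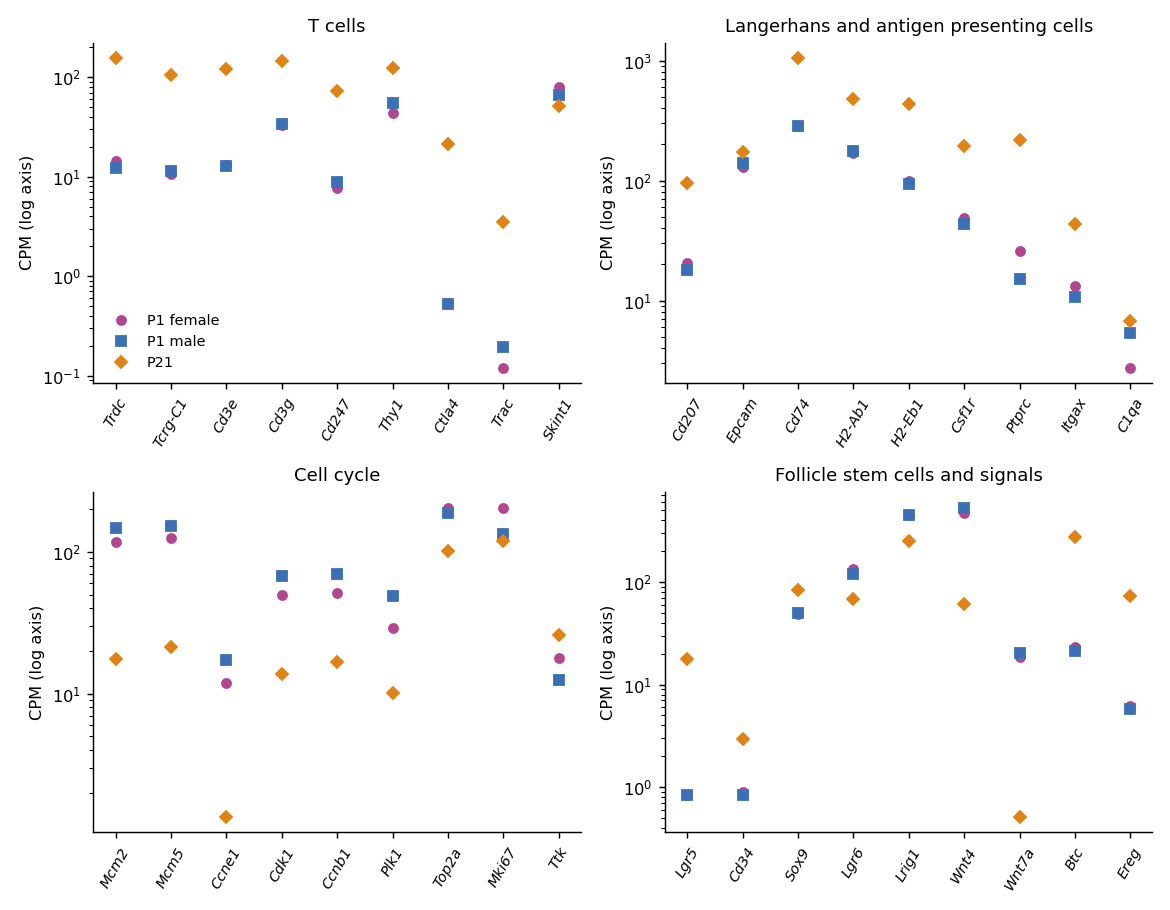
CPM on a log axis in the P1 female, P1 male and P21 libraries for chosen members of 4 lists: T cells, Langerhans and antigen presenting cells, the cell cycle, and follicle stem cells with hair cycle signals. P21 lies above both P1 libraries for all T cell genes shown but Skint1, below both for Mcm2 to Mki67, and above both for Lgr5, Cd34, Sox9, Btc and Ereg.

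Most transcripts of the hemidesmosome, which serves adhesion to the basement membrane, were not called. Of 8 tested hemidesmosome genes 2 fell (Itgb4 and Lama3) and 1 rose (Dst). That is 37.5% called, against 40.6% of all tested genes. The integrin subunit gene Itgb4 was at 629, 669.9 and 369 CPM (log2 fold change -0.82 ± 0.30 (SE)), its partner Itga6 at 793, 633 and 466 CPM (log2 fold change -0.61 ± 0.29 (SE), adjusted p = 0.0801) and Col17a1, the transmembrane collagen of the hemidesmosome, at 3899.5, 3954 and 2556 CPM (log2 fold change -0.62 ± 0.29 (SE), adjusted p = 0.0761). For Itga6 and Col17a1 the P21 level lay below both P1 levels without passing the test. Dst was at 809, 622 and 1791 CPM. Over the 25 integrin genes 10 rose and 6 fell, and they include subunits found mainly on leukocytes. Itgb2, Itgae, Itgal and Itgax had log2 fold changes of 2.76, 2.25, 2.27 and 1.85, in that order. Keratinocyte subunits Itga3 (log2 fold change -1.25), Itga5 (log2 fold change -1.33) and Itgb6 (log2 fold change -0.98) fell.

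Extracellular matrix genes gave 12 increases and 27 decreases among 62 tested (median -0.65). Fras1, which anchors the embryonic epidermis to the dermis, was at 253, 213 and 8.72 CPM (log2 fold change -4.74 ± 0.36 (SE)), and its partner Frem2 fell by 1.82 on the log2 scale. Col18a1, Hspg2 and Sparc, all parts of or binders to basement membrane, fell by 3.09, 2.29 and 2.75 on the log2 scale. Lama1, a laminin chain of early basement membranes, went against them, at 0.902, 0.781 and 34.8 CPM (log2 fold change 5.35 ± 0.37 (SE)), and tenascin X, Tnxb, rose, at 41.6, 39.5 and 309 CPM (log2 fold change 2.93). Of 16 tested claudin and tight junction genes 6 rose and none fell (median 0.50), but the calls of Cldn10 and Marveld2 were lost with DESeq2. Cingulin, Cgn, which ties tight junctions to the cytoskeleton, was at 54.7, 48.9 and 235 CPM (log2 fold change 2.18). Of 18 desmosome genes 3 fell and none rose.

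Cell division genes were lower at P21. Of 57 tested cell cycle genes 49 fell (86.0% against 18.7% of all genes) and 1 rose (median -1.5). All 6 subunits of the replicative helicase, Mcm2 to Mcm7, fell, with log2 fold changes from -2.92 to -1.24. Mcm2 was at 118, 149 and 17.6 CPM (log2 fold change -2.92 ± 0.33 (SE)) and Ccne1, the cyclin that starts S phase, at 12, 17.2 and 1.35 CPM (log2 fold change -3.43 ± 0.44 (SE)). The mitotic genes Cdk1, Ccnb1, Plk1 and Cdc20 fell by 2.10, 1.87, 1.94 and 2.33 on the log2 scale. Mki67, a marker of cycling cells, was at 206, 133 and 119 CPM (log2 fold change -0.51 ± 0.28 (SE), adjusted p = 0.134), where the P1 libraries were themselves far apart and the P21 level lay just below the male. Ttk, a spindle checkpoint kinase, was the 1 member that rose (17.7, 12.6 and 26.1 CPM). Among 16 inhibitors of the cell cycle 5 rose and 4 fell (median 0.09). Cdkn1b, which holds cells in G1, rose, at 58.3, 55.6 and 191 CPM (log2 fold change 1.75 ± 0.27 (SE)), whereas Cdkn1a was at 363, 444 and 296 CPM and was not called.

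The promoters of these genes carry known elements, and a few are shown so that the shared letters can be seen. Sequences are from RefSeq on GRCm38.p6, the 150 bases directly before an annotated start, 5′ to 3′ on the strand of the gene. For the mitotic genes, capitals mark CCAAT (or ATTGG, its other strand) and TTTGAA (or TTCAAA), the spelling of the cell cycle homology region, and for Mcm6 they mark TTTGGCGC and TTTCGCGC in either direction, forms of the E2F site.
Cdc20: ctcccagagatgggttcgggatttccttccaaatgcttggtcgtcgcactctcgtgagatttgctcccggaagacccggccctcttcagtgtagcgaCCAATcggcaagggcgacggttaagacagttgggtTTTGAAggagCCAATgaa
Cdk1: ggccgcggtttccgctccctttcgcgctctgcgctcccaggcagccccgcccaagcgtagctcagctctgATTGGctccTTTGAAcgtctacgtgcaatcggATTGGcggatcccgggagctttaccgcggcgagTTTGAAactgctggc
Ccnb1: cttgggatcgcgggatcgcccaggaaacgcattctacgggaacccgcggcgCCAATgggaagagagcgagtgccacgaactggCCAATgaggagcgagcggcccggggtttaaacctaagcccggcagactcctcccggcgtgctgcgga
Mcm6: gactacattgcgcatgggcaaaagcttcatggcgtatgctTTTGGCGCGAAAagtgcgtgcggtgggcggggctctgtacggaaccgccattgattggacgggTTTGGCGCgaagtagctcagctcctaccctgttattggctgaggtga
They lie at chr4:118437344-118437493, minus strand (Cdc20), chr10:69352913-69353062, minus strand (Cdk1), chr13:100786487-100786636, minus strand (Ccnb1) and chr1:128359706-128359855, minus strand (Mcm6). In Mcm6 a pair of overlapping matches makes the first run of capitals. A window of 250 bases before the start was found for 44 of the 57 cell cycle genes. CCAAT stood in 33 of these 44 (75%, against 39.7% of 11536 tested genes with a window), TTTGAA in 12 (27.3% against 13.3%) and the E2F forms in 4 (9.1% against 1.4%). Of the 38 called members with a window, 30 held CCAAT. A match of letters is no evidence that a factor binds there.

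Growth genes of fetal life were lower at P21, where their list gave 12 decreases and 1 increase among 24 tested (median -0.90). H19, an imprinted noncoding RNA, was at 1905 and 2967 CPM at P1 and 14.9 CPM at P21 (log2 fold change -7.35 ± 0.43 (SE), adjusted p = 2.80e-61). Igf2, its imprinted neighbour that encodes a fetal growth factor, had 110, 103 and 0 counts and was at least 34.6-fold lower. Igf2bp1, an RNA-binding protein of fetal tissues, had 199, 224 and 1 counts (log2 fold change -7.53, counting interval -13.00 to -5.20). Peg3 and Gpc3, a paternally expressed gene and a glypican that restrains growth, fell by 3.09 and 2.75 on the log2 scale. Trim71, the exception, had 4, 0 and 19 counts (counting interval 1.69 to 5.30), and its call was lost with DESeq2 and without the P1 male library. Mest, Grb10 and Meg3, also imprinted, were not called, at log2 fold changes of -0.11, 0.05 and -0.45.

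Immune cell transcripts were higher at P21. Of 27 tested T cell genes 22 rose (81.5% against 21.9% of all genes) and none fell, with a median log2 fold change of 2.64. Trdc, the constant region of the T cell receptor δ chain, was at 14.5 and 12.2 CPM at P1 and 155 CPM at P21 (log2 fold change 3.54 ± 0.28 (SE), adjusted p = 5.13e-35). Tcrg-C1, a constant region of the γ chain, was at 10.6, 11.5 and 106 CPM (log2 fold change 3.26 ± 0.28 (SE)) and Cd3e, a subunit of the receptor complex, at 12.9, 12.8 and 119.8 CPM (log2 fold change 3.22 ± 0.28 (SE)). The α chain gene Trac rose as well but had only 2, 3 and 54 counts (log2 fold change 4.40, counting interval 3.16 to 6.15), and Cd4 was at 0.241, 0.26 and 1.6 CPM. Ctla4, an inhibitory receptor, rose, at 0.541, 0.52 and 21.3 CPM (log2 fold change 5.31). Foxp3, the regulator of regulatory T cells, was at 0.541, 0.455 and 0.705 CPM and was not called. Skint1, the keratinocyte gene that selects the Vγ5 T cells of the epidermis, was at 79, 66.4 and 51.3 CPM and was not called, while 9 of 11 tested Skint genes rose, Skint5 among them at 6.62, 5.33 and 122 CPM (log2 fold change 4.34). In whole epidermis more T cells and more RNA per T cell cannot be told apart, and the same holds for every cell type below.

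Langerhans cell and antigen presenting cell genes gave 20 increases and no decrease among 28 tested (median 1.87). Cd207, langerin, which marks Langerhans cells, was at 20.8 and 17.8 CPM at P1 and 95.6 CPM at P21 (log2 fold change 2.31 ± 0.27 (SE)). Csf1r, the receptor these cells need, was at 49.1, 43.1 and 195 CPM (log2 fold change 2.08 ± 0.27 (SE)) and Ptprc, CD45 of all leukocytes, at 26.1, 15.2 and 219 CPM (log2 fold change 3.40 ± 0.27 (SE)). All 8 tested genes of MHC class II and its loading machinery rose, with log2 fold changes from 1.47 to 4.68, and Cd74, the invariant chain, was at 284, 283 and 1047 CPM. The macrophage complement genes C1qa, C1qb and C1qc were not called (log2 fold change 0.75, -0.78 and -1.04), nor was Cd68 (log2 fold change 0.61). Of the defining markers of neutrophils and mast cells, Ly6g and Ms4a2 had 0 counts in all 3 libraries, and Cpa3 and Csf3r had 3 or fewer in each. Of the 4 tested genes of that list Hdc and Kit rose and S100a9 fell, and all 3 calls were lost with DESeq2 (adjusted p = 0.23, 0.0612 and 0.12).

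MHC class I genes, which present peptides on most cells, rose in 15 of 16 tested. H2-K1 was at 139 and 147 CPM at P1 and 1384 CPM at P21 (log2 fold change 3.28 ± 0.28 (SE)), B2m, the light chain of class I, at 102, 96.9 and 550.1 CPM (log2 fold change 2.47 ± 0.26 (SE)), and H2-Q6 at 1.08, 0.976 and 163 CPM (log2 fold change 7.29 ± 0.34 (SE), adjusted p = 2.93e-96). In H2-Q7 the levels were 2.53, 2.08 and 136 CPM (log2 fold change 5.87 ± 0.31 (SE)). Both H2-Q genes went from at most 42 counts in a P1 library to 2118 or more at P21. They are near-identical copies, so the split of reads between them is uncertain, and their promoters are shown beside those of H2-Q4 and H2-K1. Capitals mark ATTGG and CCAAT, which stand the same distance apart in all 4 genes shown, with differing bases between them.
H2-Q6: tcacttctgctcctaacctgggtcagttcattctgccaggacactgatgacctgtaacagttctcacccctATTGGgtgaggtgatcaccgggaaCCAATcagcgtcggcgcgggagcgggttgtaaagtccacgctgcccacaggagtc
H2-Q7: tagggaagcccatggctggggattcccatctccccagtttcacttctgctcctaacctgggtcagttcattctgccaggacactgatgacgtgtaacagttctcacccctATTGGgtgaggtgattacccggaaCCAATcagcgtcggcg
H2-Q4: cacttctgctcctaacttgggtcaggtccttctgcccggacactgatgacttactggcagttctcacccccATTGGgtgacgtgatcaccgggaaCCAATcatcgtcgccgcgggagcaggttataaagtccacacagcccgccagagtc
H2-K1: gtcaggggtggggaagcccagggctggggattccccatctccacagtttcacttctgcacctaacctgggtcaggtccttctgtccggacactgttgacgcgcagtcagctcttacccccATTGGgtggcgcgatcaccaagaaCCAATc
They lie at chr17:35424700-35424849, plus strand (H2-Q6), chr17:35439005-35439154, plus strand (H2-Q7), chr17:35379467-35379616, plus strand (H2-Q4) and chr17:34000334-34000483, minus strand (H2-K1). Lined up at ATTGG and read from 60 bases before it to the end of CCAAT, H2-Q6 and H2-Q7 matched at 86 of 89 bases (96.6%). Over the same bases H2-Q6 and H2-Q4 matched at 53 (59.6%), and H2-Q6 and H2-K1 at 48 (53.9%). No gap was allowed in these counts. The run ggacactg stands a base further from ATTGG in H2-Q4 and H2-K1 than in H2-Q6. Bases before that shift were compared out of step, so the shares for H2-Q4 and H2-K1 can understate their likeness to H2-Q6.

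The interferon response list, which holds several of these class I genes, gave 24 increases and 2 decreases among 40 tested (median 1.59). Oas2, which senses double-stranded RNA, was at 1.02, 1.56 and 21.2 CPM (log2 fold change 4.04 ± 0.37 (SE)), and the GTPase genes Gbp4 and Gbp7 rose by 3.64 and 3.61 on the log2 scale. The list was not uniform. Mx1 and Mx2, which block viral replication, rose (log2 fold changes 1.59 and 1.70). Of the 14 members that were not called, Isg15 was at 2.17, 2.15 and 2.37 CPM, Ifit1 at 0.481, 0.586 and 0.961 CPM, Rsad2 at 0.662, 0.39 and 0.449 CPM and Irf7 at 10.8, 10.5 and 8.2 CPM. Cxcl10, a chemokine induced by interferon, fell (9.86, 7.81 and 4.55 CPM), as did Ifi27l2a (log2 fold change -1.53). The spelling GAAA, any 2 bases and GAAA (on the other strand TTTC, any 2 bases and TTTC), the core of the interferon-stimulated response element, is in capitals in 3 promoters of genes that rose, B2m, Gbp7 and Oas3, and in that of Isg15, which did not pass the test.
B2m: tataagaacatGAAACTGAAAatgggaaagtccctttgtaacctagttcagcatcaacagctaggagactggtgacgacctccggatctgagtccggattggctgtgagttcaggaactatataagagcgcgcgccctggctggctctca
Gbp7: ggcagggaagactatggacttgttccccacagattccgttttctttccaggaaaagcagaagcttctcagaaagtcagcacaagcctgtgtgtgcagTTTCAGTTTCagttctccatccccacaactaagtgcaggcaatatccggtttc
Oas3: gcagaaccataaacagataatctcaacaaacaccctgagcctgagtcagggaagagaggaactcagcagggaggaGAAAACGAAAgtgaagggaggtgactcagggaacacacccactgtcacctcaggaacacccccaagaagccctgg
Isg15: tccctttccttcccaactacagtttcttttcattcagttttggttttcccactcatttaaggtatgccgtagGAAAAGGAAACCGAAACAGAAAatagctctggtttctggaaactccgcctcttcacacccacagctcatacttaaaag
They lie at chr2:122147537-122147686, plus strand (B2m), chr3:142530186-142530335, plus strand (Gbp7), chr5:120777660-120777809, minus strand (Oas3) and chr4:156200819-156200968, minus strand (Isg15, where 3 matches overlap). The letters stood within 250 bases before the start in 15 of 28 list members with a window (53.6%, against 3.1% of the tested genes), in 10 of the 17 that were called and in 5 of the 11 that were not.

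Lipid genes were mixed. Scd1 itself did not differ between the ages beyond the spread (log2 fold change -0.03 ± 0.27 (SE), adjusted p = 0.94), with the P21 level between the P1 levels. Both Scd2 and Scd3 fell. Scd2 was at 198, 253 and 48.3 CPM (log2 fold change -2.22 ± 0.31 (SE)) and Scd3, a sebaceous gland form, at 20.1, 22.4 and 6.79 CPM (log2 fold change -1.65 ± 0.35 (SE)), while Scd4 had 17, 15 and 11 counts and was not called. Per length Scd1 was at 99.1, 118 and 103 TPM and Scd2 at 109.6, 126 and 24.6 TPM, so the pair was near equal at P1 and far apart at P21. Of 36 genes of fatty acid synthesis and desaturation 7 rose and 5 fell (median -0.31), and of 25 genes of fatty acid oxidation 5 rose and 2 fell. The shares called, 33.3% and 28%, were below the 40.6% of all tested genes. Acsbg1, an acyl-CoA synthetase, rose, at 282, 316 and 1372 CPM (log2 fold change 2.20 ± 0.27 (SE)), and Fabp5, the epidermal fatty acid binding protein, fell, at 567, 718 and 123 CPM (log2 fold change -2.39 ± 0.32 (SE)). Of 35 sebaceous gland genes 7 rose and 9 fell. The sebocyte wax synthase genes Awat1 and Awat2 fell by 1.33 and 1.27 on the log2 scale.

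Cholesterol synthesis was one-sided, with 17 decreases and no increase among 25 tested genes (median -1.15). Cyp51, a demethylase of the pathway, was at 118, 142 and 44.4 CPM (log2 fold change -1.55 ± 0.30 (SE)), and Sqle, which oxidizes squalene, fell by 1.18 on the log2 scale. Hmgcs1, an early enzyme of the pathway, was at 263, 204 and 250.4 CPM and was not called. Genes of barrier ceramides leaned the other way, 10 up and 3 down of 31 (median 0.39). Aloxe3, the lipoxygenase that acts on the linoleate of barrier ceramides, rose, at 80.4, 89.3 and 462 CPM (log2 fold change 2.45 ± 0.26 (SE)), and its partner Alox12b was at 75.5, 92 and 113 CPM and was not called. Lipn, a lipase of the granular layer, rose, at 6.56, 4.55 and 38.8 CPM (log2 fold change 2.80), and Abca12, the transporter that loads lamellar granules, rose by 1.05 on the log2 scale.

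Energy genes divided by the genome that encodes them. All 13 mitochondrially encoded protein-coding genes rose, with a median log2 fold change of 2.15. The cytochrome oxidase gene mt-Co1 was at 11146, 12359 and 49503 CPM (log2 fold change 2.07 ± 0.26 (SE)). Nuclear genes of oxidative phosphorylation went opposite, with 65 decreases and 1 increase among 75 tested (median -1.05). Ribosomal protein genes gave 69 decreases and no increase among 81 tested (median -0.98). With the median of each gene's own length class taken off, the last 2 medians were -0.90 and -0.87. The part of the shift by length in these decreases was not tested beyond that. In SCD1-/- epidermis, also with 1 library at P21, the medians over the same ages differed. They were 0.32 for nuclear oxidative phosphorylation genes, 0.18 for ribosomal protein genes and 1.77 for mitochondrially encoded genes. Glycolysis gave 11 decreases and 3 increases among 23 (median -1.10). Slc16a1, a lactate transporter, fell, at 143, 137 and 14.2 CPM (log2 fold change -3.30 ± 0.34 (SE)), and Ldha, which makes lactate, by 1.43 on the log2 scale. Core genes of PI3K-Akt signaling gave 10 increases and 6 decreases among 43 (median 0.18), and Pik3cd and Pik3cg, the catalytic subunits of leukocytes, led the increases at 2.82 and 2.61 on the log2 scale. Akt1 fell, at 249, 304 and 144 CPM.

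Immediate early genes, which rise within minutes of stress or growth signals, were lower at P21. Of 27 tested genes of this and the heat shock response 21 fell and 2 rose (median -1.24). Fosb was at 634, 618 and 22.7 CPM (log2 fold change -4.78 ± 0.37 (SE)), Atf3 at 330.4, 280.5 and 6.67 CPM (log2 fold change -5.52 ± 0.38 (SE)) and Jun at 1089, 1248 and 147 CPM (log2 fold change -2.99 ± 0.34 (SE)). Egr3 and Hspb1 were the 2 that rose. Such genes can also be induced while tissue is digested. The study's methods describe overnight digestion for cell culture of neonatal skin (dispase, then trypsin) and for cell sorting (trypsin), and do not say which was used for each RNA library, so age and handling cannot be told apart for them.

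Clock genes gave 11 increases and 2 decreases among 19 tested (median 0.93). Per2 and Per3, repressors of the clock, rose by 1.39 and 1.60 on the log2 scale, and Per2 was at 12.6, 12.1 and 32.4 CPM. Tef and Hlf, outputs with a PAR basic leucine zipper, rose by 1.54 and 2.01 on the log2 scale. Bhlhe40, a further repressor, fell, at 132, 113 and 28.7 CPM (log2 fold change -2.10 ± 0.31 (SE)), and Nr1d1 by 0.83 on the log2 scale. Arntl and Clock, the activating pair, were at 45.6, 34.9 and 55.7 CPM (not called) and 53, 29.1 and 76.2 CPM (log2 fold change 0.89). The hour at which skin was taken is not given in the sources used here, and age and hour cannot be told apart. Ciart, a repressor with a low level (2.71, 2.86 and 6.92 CPM, log2 fold change 1.31), holds the E-box CACGTG bound by the Clock and Arntl pair 3 times in the 150 bases before its start, in capitals.
Ciart: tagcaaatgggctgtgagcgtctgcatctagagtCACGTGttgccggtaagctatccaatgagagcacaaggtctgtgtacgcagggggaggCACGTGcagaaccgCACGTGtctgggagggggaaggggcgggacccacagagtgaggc
It lies at chr3:95882229-95882378, minus strand. The 6 letters stood within 250 bases before the start in 5 of 16 clock genes with a window (31.2%, against 9.5% of the tested genes), Bhlhe41, Ciart, Cry1, Per1 and Tef.

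Lists of other cell types that a skin digest can hold were measured as well. The melanocyte list summed to 565, 653 and 519 CPM, the adipocyte list to 409.9, 508 and 371 CPM and the erythroid list to 211, 145 and 370.3 CPM, and several of their members are also expressed outside those cells. Adipocyte markers Adipoq and Lep had 0 counts in all 3 libraries, and Plin1 and Retn 1 count at most. Muscle markers Acta1, Ckm and Myh11 had 6 counts or fewer in each library. Fibroblast markers differed between the P1 libraries themselves: Col3a1 had 192, 9 and 49 counts and Col1a1 144, 35 and 83 counts, and of 14 tested fibroblast genes, which summed to 381, 374 and 591 CPM, 6 rose and 4 fell. Of 12 dermal papilla genes 4 rose and 1 fell, of 8 adipocyte genes 1 rose and 1 fell, of 7 muscle genes 4 fell and of 6 Merkel cell genes 2 fell. The calls of the fibroblast genes Col1a2 and Pdgfra were lost with DESeq2. That of Col1a2 was also lost with library size alone, with upper quartile factors, in the fit of all 6 libraries and without the P1 female library. With DESeq2 the calls of the muscle genes Myh4 and Tnni2, of the Merkel cell genes Krt8 and Chga, of Plin4 in the adipocyte list and of Rspo3 and Trps1 in the dermal papilla list were lost. Melanocyte genes gave 3 increases and 6 decreases among 17, with Pmel, a melanosome protein, falling by 0.89 on the log2 scale. Dct, an enzyme of pigment synthesis, was at 123, 155 and 163 CPM and was not called. Of 8 endothelial genes 5 rose, their list summed to 4.99, 5.14 and 17.5 CPM, and Cdh5 had 0, 0 and 24 counts. With DESeq2 the calls of Plvap, Pecam1 and Vwf were lost (adjusted p = 0.323, 0.209 and 0.178), and that of Tie1 was lost without the P1 male library and in the fit of all 6 libraries. Of 9 neural and Schwann cell genes 6 rose and 1 fell. Among 7 erythroid genes 5 rose and 1 fell. The globin Hbb-bs was at 0.962, 0.846 and 142 CPM (log2 fold change 7.28 ± 0.35 (SE)) and Hba-a1 at 4.27, 5.2 and 117 CPM, and globins have near-identical copies. All globins together took 0.0306% of the P21 counts. Of 17 antimicrobial and alarmin genes 2 rose and 6 fell, the neutrophil chemokine genes Cxcl1 (34, 25 and 0 counts, at least 9.59-fold lower) and Cxcl2 (57, 53 and 0 counts, at least 17.9-fold lower) among them.

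The largest changes among protein-coding genes with at least 10 CPM at the higher age reached beyond these lists. Aox4, an aldehyde oxidase of skin glands, had 1405, 1357 and 1 counts (log2 fold change -10.23, counting interval -15.70 to -7.92). Fam71a had 215, 131 and 0 counts, so it was at least 56.2-fold lower at P21. The 10 largest decreases also held Krt86, Krt34, Krt81, Stfa3, the keratin-associated protein genes Krtap19-4, Krtap15 and Krtap11-1, and Gprc5d, a receptor of hard-keratin cells (633, 454 and 1 counts). Upward, Ifitm6 had 0, 1 and 190 counts (log2 fold change 8.28, counting interval 6.11 to 13.92), Best2 had 1, 1 and 182 counts (log2 fold change 7.37, interval 5.67 to 10.60) and Adgre4, a receptor of myeloid cells, had 2, 4 and 362 counts (log2 fold change 6.89, interval 5.81 to 8.41). Slit3, a secreted guidance protein, was at 0.541, 0.455 and 30.8 CPM (log2 fold change 5.92 ± 0.40 (SE)), Slc9a3, a sodium and proton exchanger, at 0.18, 0.26 and 17.6 CPM and F830045P16Rik at 1.08, 0.325 and 60.9 CPM. In the SCD1-/- library at P21, Slit3 was at 35.7 CPM, Slc9a3 at 0.197 CPM and F830045P16Rik at 1.71 CPM. Gm10800 went from 0 counts in both P1 libraries to 961, at least 328-fold higher, but it holds repeated sequence found at many places and its counts are uncertain.

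**Figure D5:**
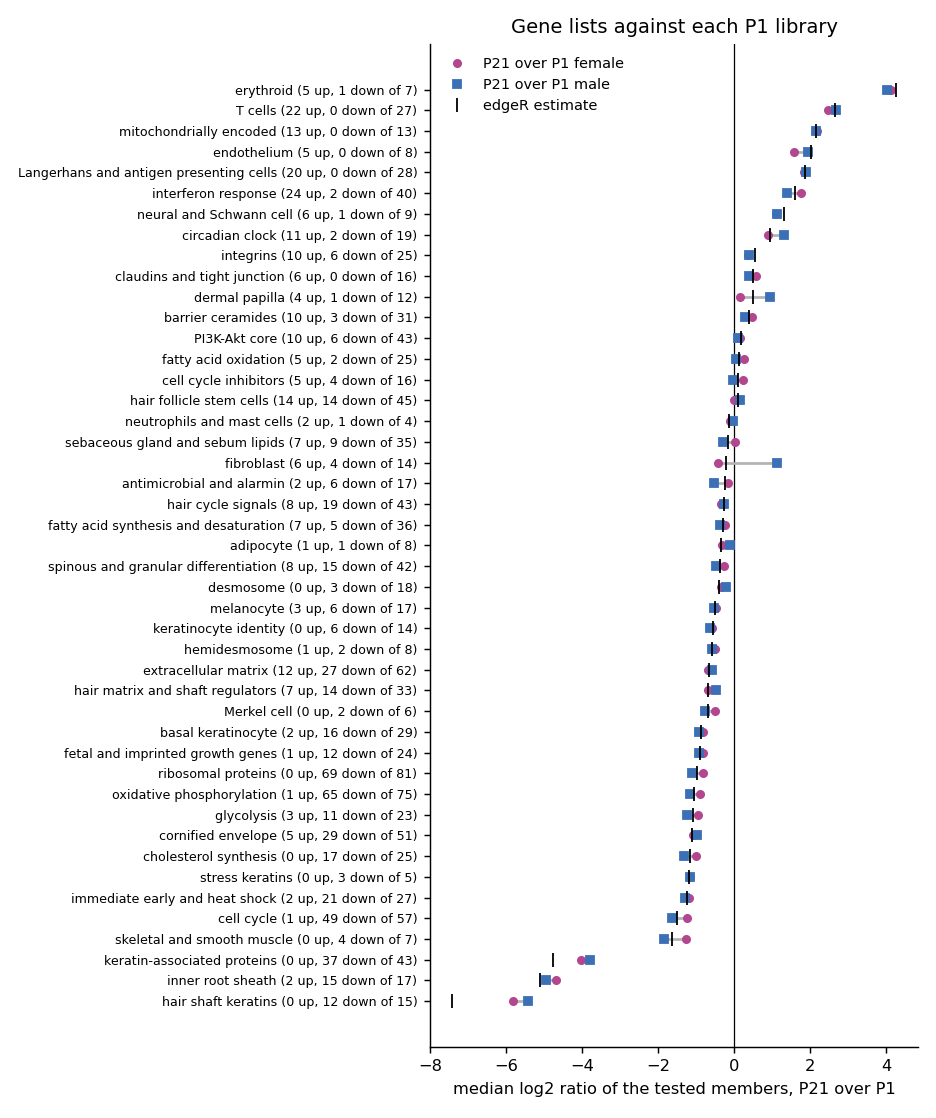
Median log2 ratio of the tested members of 45 gene lists, P21 over the P1 female library (circles), P21 over the P1 male library (squares) and as estimated by edgeR from both (bars), with the number of members that rose, fell and were tested. Both P1 libraries give nearly the same median for most lists, and the edgeR medians run from -7.42 for hair shaft keratins to 4.26 for erythroid genes. The sign differs between the P1 libraries for fibroblast genes, sebaceous gland genes and cell cycle inhibitors.

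The same interval was measured in SCD1-/- epidermis, and the difference of the age changes was tested in a fit of all 6 libraries. It passed the adjusted p for 5112 of 18165 genes (28.1%), with 2336 more positive and 2776 more negative in WT. With library size alone as the scale, that division became 3286 to 1714, and without the WT P1 female library 7680 genes passed. Krt86 fell in both genotypes and was at 106, 85.3 and 0.0641 CPM in WT and 159, 231 and 0.0656 CPM in SCD1-/-. Lgr5 was at 1.07, 0.735 and 20.8 CPM in SCD1-/-, and its difference of -0.19 on the log2 scale did not pass the test (adjusted p = 0.799, edgeR). Krt14 fell in WT, while in SCD1-/- it was at 12381, 12742 and 18333 CPM (difference -3.11, adjusted p = 2.91e-04, edgeR). Lor was not called in WT and was at 3047, 4346 and 110.2 CPM in SCD1-/- (difference 4.73, adjusted p = 1.31e-04, edgeR). Tnxb rose in WT and was at 39.8, 37.2 and 0.853 CPM in SCD1-/- (difference 8.36, adjusted p = 8.92e-06, edgeR). With 1 library per genotype at P21, each of these differences rests on those 2 libraries.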

How the data were processed

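RNA of epidermal cells of C57BL/6 mice was sequenced after library preparation with the NEBNext Ultra kit. Per the submitters' processing notes, HISAT2 2.0.5, featureCounts 1.5.0-p3 and DESeq2 1.16.1 were used with GRCm38 (mm10). The authors deposited raw read counts per gene in 1 table per age, with no normalization. Columns of 16 further per-sample values and the authors' fold changes and p-values were not used.

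The tables were joined by gene identifier. Genes were filtered with filterByExpr, scaled with TMM and tested with edgeR 4.0.16 (quasi-likelihood test, R 4.3.3), with Benjamini-Hochberg adjustment over all 17172 genes tested. The fit had 3 libraries and 1 residual degree of freedom, and the spread was shared across genes. Totals of 14795379 to 16781305 counts set the depth, and intervals and the limit of 3 counts per library cover counting error only. Where a library had 0 counts, folds are bounds against that limit. Genotype differences were tested as an interaction over 6 libraries and 18165 genes.

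The comparison, the gene lists and the rule for named genes were chosen with earlier results of these data known. Named genes were those of the study's own text, the 10 largest called increases and decreases among protein-coding genes of at least 10 CPM at either age, up to 5 called genes per list by size of change among members of at least 1 CPM, defining markers, the 10 highest genes per length at each age and the 5 genes with the smallest interaction p and no overlap. Other members named for their role were chosen after their values were seen.

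On data simulated from these libraries, the test of P21 against P1 recovered 3, 22, 50 and 50 of 50 genes changed by 1.5, 2, 4 and 8-fold, with 7 false calls among 16447 genes. In it 200 genes changed and the P21 library was drawn with the spread fitted to the P1 pair. The false calls thus do not measure the spread at P21. Alternatives were other scaling factors, other filters, DESeq2 1.42.0, all 6 libraries in one fit and a minimum change. Each P1 library was also left out of that fit of 6 libraries. Leaving out mitochondrial and ribosomal RNA genes, keeping protein-coding genes alone and taking off the median of the length class were chosen after seeing the data. Some items are not reported here.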

Additional observations from a re-analysis of the deposited data

Results flagged for a closer look

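The change from P1 to P21 differed between WT and SCD1-/- epidermis for 5112 genes by edgeR's test of that difference. Among genes that the study names, the difference on the log2 scale (WT change minus SCD1-/- change) was 10.86 for Scd1, the targeted gene, whose P21 level in SCD1-/- was 0, so its fitted value is no measure of size. It was -1.85 for Scd2 and -2.51 for Scd3, the related desaturases. Scd3 was at 20.1, 22.4 and 6.79 CPM in WT and at 2.49, 1.92 and 3.87 CPM in SCD1-/-. The genotypes thus differed in Scd3 already at P1, and by more than at P21. For the bulge markers Sox9 and Cd34 the difference of the age changes was -2.42 and -3.25. For the basal keratin Krt14 it was -3.11, for loricrin (Lor) 4.73, and for the hemidesmosome genes Itga6 and Col17a1 1.33 and 2.46. The 5 genes with the smallest p of the difference and no overlap between the groups gave 8.36 for Tnxb, 7.97 for Efemp1, a matrix glycoprotein, 7.06 for Lgr6, 6.29 for Antxr1, an anthrax toxin receptor, and 5.80 for Ackr4, a scavenger of chemokines. All of these rest on 1 P21 library per genotype.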

How the results depend on the processing

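With 1 P21 library, leaving out a replicate is possible at P1 alone. Without either WT P1 library the counts ran from 8178 to 9237 changed genes, against 6974. Of these, 3843 to 4385 were higher and 4335 to 4852 lower, against 3769 and 3205. Genotype differences rose from 5112 without either WT P1 library, to 7680 at the highest. Without either SCD1-/- P1 library they fell, to 3901 at the lowest. DESeq2 called 4376 genes, 1910 higher (43.6%, against 54% by edgeR), of which 4353 were also called by edgeR, and it set no adjusted p for 37409 genes. Scaling by library size alone moved the median of all genes to 0.16 and upper quartile factors to 0.12, from 0.04, and called 61% and 59.4% of changed genes higher. Directions that turned belonged to genes not called. Scd1 was at 0.046 with upper quartile factors and 0.092 with library size alone, and ran from -0.30 to 0.15 without a P1 library, and Col1a1 was at 0.036 and 0.059 and ran from -0.74 to 1.13. Without a P1 library Col3a1 ran from -1.91 to 2.32, Trp63 from -0.16 to 0.21, Dct from -0.016 to 0.36, Tyrp1 from -0.068 to 0.15 and Mylpf from -0.026 to 0.082. The cause was not tested. List medians of sebaceous gland genes, cell cycle inhibitors, fatty acid oxidation, antimicrobial genes, neutrophil and mast cell genes, fibroblast genes and the genes of the sex check changed sign in at least 1 setting. Over the named genes and settings, 1700 values kept direction and side of the threshold, 50 lost the call, 22 gained it and 11 turned. No paired analysis was possible because P21 has 1 library.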
